A study of Mus musculus and Homo sapiens with 9 samples.

Results

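The proximal T cell receptor signaling genes are a list of 35 genes, chosen by function, that encode the chains of the receptor complex, the kinases it engages first, the adaptors they phosphorylate, and the phosphatases, ubiquitin ligases and bridging proteins that set the strength of that signal. All 35 were found in the human table, which holds 64252 rows, and in the mouse table, which holds 43432, and all 35 passed the filter on low counts in both, alongside 15819 human and 15350 mouse genes that were tested. RNA-seq was done on J.gamma1, a human T cell acute lymphoblastic leukemia line, after lentiviral expression of a control hairpin (labelled shNC, here sh-NC, n = 2) or a hairpin against IRF2BP2 (shIRF2BP2, here sh-IRF2BP2, n = 2), and on CD3+ T cells isolated from mouse spleen, either Irf2bp2 KO (n = 2) or Wild type (n = 3). J.gamma1 is 1 clonal derivative of the Jurkat line, known for its lack of phospholipase C gamma 1 protein; both J.gamma1 groups carry that defect and both were infected and selected. Per the study's methods, the KO animals were Vav-iCre+/-;Irf2bp2fl/fl and the animals labelled Wild type were Vav-iCre-/-;Irf2bp2fl/fl, so that both groups carry the floxed alleles and differ by the Cre, which is active throughout the blood lineages and not in T cells alone. The labels give no age for the sorted mice, and the sources used here do not say which hairpin was sequenced or whether replicates came from separate cultures or animals, so the p-values measure the spread between these libraries, which may be technical.

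IRF2BP2 encodes a transcriptional cofactor that lacks sequence-specific DNA binding of its own. It has been described as a corepressor and as a coactivator, and the study reports that it activates a RAG1 enhancer in J.gamma1 cells. The T cell receptor has no enzymatic activity: the CD3 and zeta chains carry tyrosine motifs that the Src family kinases LCK and FYN phosphorylate, ZAP70 docks on the phosphorylated motifs, and ZAP70 then phosphorylates the adaptors LAT and SLP-76 (the product of LCP2), on which the enzymes of the calcium, Ras and NF-kB branches assemble. CD45, the product of PTPRC, keeps LCK primed by removing its inhibitory phosphate, whereas CSK, SHP-1 (PTPN6) and PTPN22 oppose the kinases and the CBL and UBASH3 proteins bring the receptor and its kinases to degradation or dephosphorylation.

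CD3D and CD3G, which encode the delta and gamma chains, are neighbouring genes on human chromosome 11 that point away from each other, with annotated starts 1639 bases apart. The window of CD3D from 250 bases before to 30 bases after the start of the canonical transcript is shown because CD3D was the member that fell in J.gamma1, together with the windows of PTPRC and LAT, which were among the increases, and of mouse Cd3d. In each window the RUNX core motif (TGTGGT, or ACCACA on the other strand) and the ETS core motif (CCGGAA, or TTCCGG) are in capitals. The human windows are chr11:118342676-118342955 (minus strand), chr1:198638790-198639069 and chr16:28984802-28985081 of hg38, and the mouse window is chr9:44981536-44981815 of GRCm38.p6 from RefSeq, all 5′ to 3′ on the strand of the gene. In GENCODE these genes span chr11:118339075-118342705 (CD3D), chr1:198638457-198757476 (PTPRC) and chr16:28984826-28990784 (LAT) of hg38 and chr9:44981786-44987339 (Cd3d) of mm10.
CD3D: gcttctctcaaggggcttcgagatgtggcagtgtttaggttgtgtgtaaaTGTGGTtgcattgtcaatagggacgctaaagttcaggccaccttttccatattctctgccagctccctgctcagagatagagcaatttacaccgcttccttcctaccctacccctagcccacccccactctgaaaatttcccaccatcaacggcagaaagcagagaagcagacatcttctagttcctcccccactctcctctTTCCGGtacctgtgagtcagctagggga
PTPRC: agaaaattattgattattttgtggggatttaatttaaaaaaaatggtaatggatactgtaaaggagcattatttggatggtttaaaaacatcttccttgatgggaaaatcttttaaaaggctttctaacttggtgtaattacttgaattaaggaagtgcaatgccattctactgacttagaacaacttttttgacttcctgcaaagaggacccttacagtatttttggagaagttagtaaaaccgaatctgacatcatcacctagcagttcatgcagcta
LAT: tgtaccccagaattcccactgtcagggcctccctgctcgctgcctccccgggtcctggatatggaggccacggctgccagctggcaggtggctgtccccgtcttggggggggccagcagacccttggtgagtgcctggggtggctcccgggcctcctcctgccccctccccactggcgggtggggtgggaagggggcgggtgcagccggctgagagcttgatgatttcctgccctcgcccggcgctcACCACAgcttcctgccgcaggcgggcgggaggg
Cd3d: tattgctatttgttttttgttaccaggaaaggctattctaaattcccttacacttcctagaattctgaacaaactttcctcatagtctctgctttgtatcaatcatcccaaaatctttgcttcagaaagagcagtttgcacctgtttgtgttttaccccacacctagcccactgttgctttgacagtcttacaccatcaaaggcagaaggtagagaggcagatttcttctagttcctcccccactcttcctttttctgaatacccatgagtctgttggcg

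The CD3D window held 1 RUNX and 1 ETS match that did not overlap, and the LAT window 1 RUNX match. The PTPRC and mouse Cd3d windows held neither motif in the form searched, and the shares below count those forms only. ETS motifs of other forms were not counted, so a low share does not show a lack of ETS motifs. Among all 35 human members, 8 windows (22.9%) held the RUNX motif and 5 (14.3%) the ETS motif, against 8.33% and 29.1% of the 12738 windows of protein-coding genes tested. In the mouse, RefSeq entries were matched by symbol for 30 members, with 41 windows, of which 8 (19.5%) held the RUNX motif and 4 (9.76%) the ETS motif, against 12.5% and 25.3% of 13432 windows. A match of letters is a description of the window and not a site of binding.

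Total counts were between 26648204 and 31120236 per J.gamma1 library and between 16668577 and 37177523 per mouse library, with Wild type replicate 3 the shallowest. The members together took 0.448% and 0.468% of the counts in sh-NC and 0.513% and 0.530% in sh-IRF2BP2, and 1.08% to 1.10% in Wild type and 1.00% to 1.02% in Irf2bp2 KO. IRF2BP2 itself was at 204 and 199 CPM (counts scaled to a common library size by TMM) in sh-NC and at 79.0 and 93.8 in sh-IRF2BP2, a log2 fold change of -1.22 ± 0.13 (SE; adjusted p = 0.00229). Mouse Irf2bp2 was at 112, 127 and 119.8 CPM in Wild type and had a count of 0 in both KO libraries, which is at least 1420-fold lower with 3 counts per library as the limit that a count of 0 allows.

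Expression levels per exon length (TPM, counts divided by exon length and scaled to a common sum) differed widely among the members. In sh-NC they ran from 1.16 TPM for TXK to 711 TPM for LCK with a median of 53.7 TPM, and in Wild type T cells from 16.8 TPM for Ubash3b to 955 TPM for Lck with a median of 108 TPM. LCK was therefore the highest member in both systems. CD3E (644 TPM) and CD3D (256 TPM) followed it in J.gamma1, whereas Lat (589 TPM) and Cd3d (581 TPM) followed it in mouse T cells. LAT, the membrane scaffold of the pathway, was at a mean of 25.4 TPM in sh-NC, rank 28 of the 35 members, and TXK, a Tec family kinase, was the lowest member in J.gamma1 but stood at 31.5 TPM in mouse T cells. Levels in the line and in mouse T cells come from separately normalized tables and were not tested against each other.

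**Figure D1:**
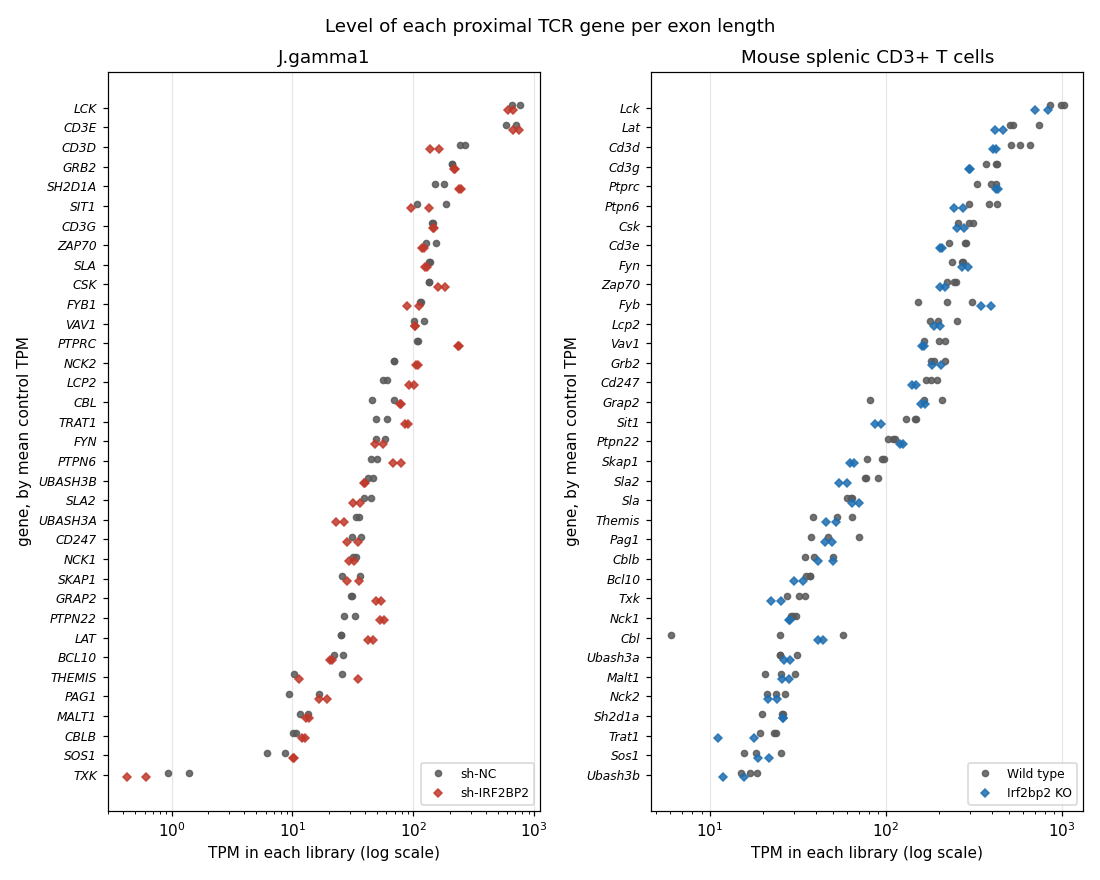
Level of each of the 35 members in each library, in TPM on a log scale, ordered by the mean of the control libraries; circles are control libraries and diamonds are sh-IRF2BP2 (left) or Irf2bp2 KO (right) libraries. LCK stands highest in both panels, TXK lowest in J.gamma1, and Cbl shows the widest spread among Wild type libraries.

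In J.gamma1, 9 of the 35 members rose and 1 fell after knockdown at an adjusted p under 0.05 (edgeR quasi-likelihood test, Benjamini-Hochberg over all genes tested), and 25 did not pass. Over all genes tested, 5.83% were called higher, 5.32% lower and 11.2% in either direction. At an unadjusted p under 0.05, 11 members were higher and 3 lower, against 14.3% and 13.4% of all genes. The log2 fold changes of the members had a median of 0.04 and ran from -1.17 (TXK, about 1 CPM) to 1.11 (PTPRC), the median over all genes being 0.01. The signs were split, with 15 members below 0 (49.4% of all genes), and the 2 replicates of each group did not overlap for 13 members higher and 12 lower, against 29.6% and 28.7% of all genes. Of the 10 called members, 5 (CD3D, TRAT1, LAT, GRAP2 and PTPN22) were among the 8 with a RUNX match in the window described above, and 1 (CD3D) among the 5 with an ETS match. The share of these motifs over all called genes was not computed, and a relation between motif and change was not tested.

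**Figure D2:**
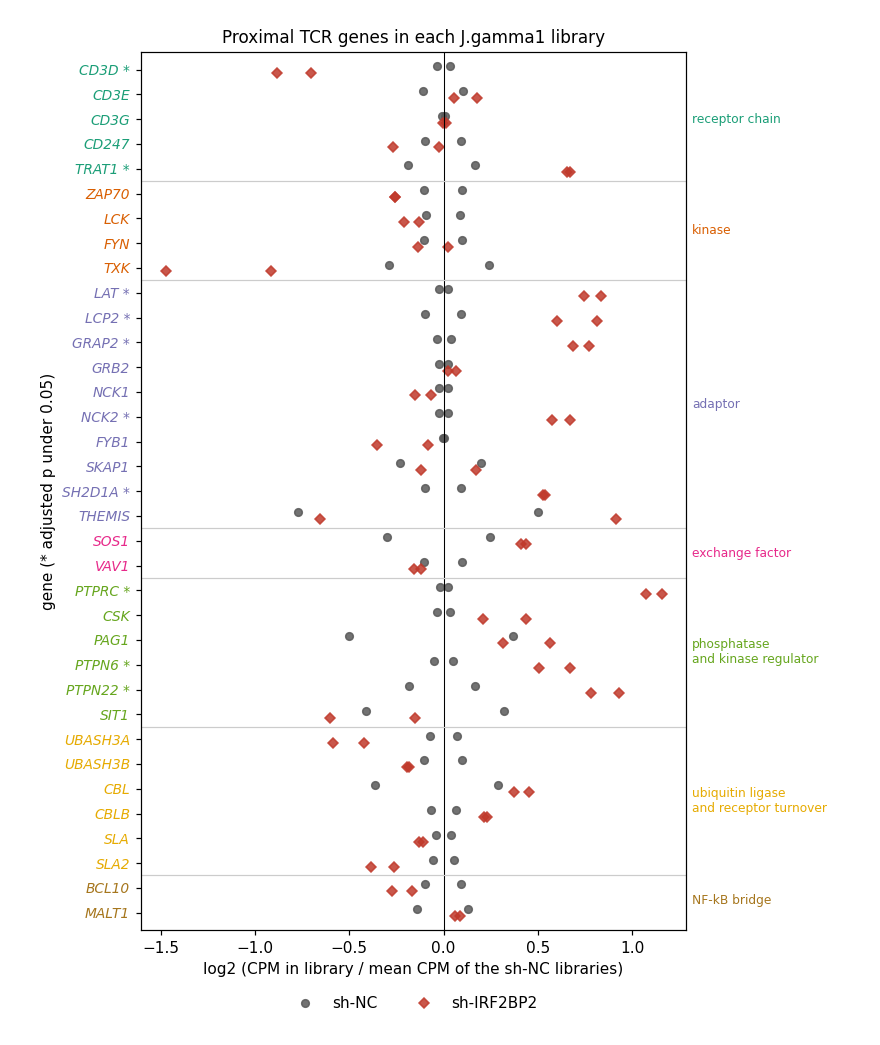
Each J.gamma1 library's CPM relative to the mean of the 2 sh-NC libraries, on a log2 scale, for the 35 members grouped by role; an asterisk marks an adjusted p under 0.05. CD3D is the called member to the left of 0, and the called members to the right are TRAT1, 5 adaptors and 3 phosphatases.

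Among the receptor chains, knockdown left CD3E, CD3G and CD247 without a detectable change while CD3D fell. CD3D was at 220.0 and 231 CPM in sh-NC and at 122 and 139 CPM in sh-IRF2BP2, a log2 fold change of -0.79 ± 0.12 (adjusted p = 0.00859). Both knockdown libraries lay well below both controls; without sh-IRF2BP2 replicate 1 the value was -0.73 with an adjusted p of 0.0602. CD3G was at 144 and 143 CPM in sh-NC and at 144 and 143 CPM in sh-IRF2BP2, and the 95% interval of its log2 fold change ran from -0.26 to 0.26. The count of CD3D per count of CD3G was accordingly 1.53 and 1.62 in sh-NC and 0.847 and 0.972 in sh-IRF2BP2. CD3E, the epsilon chain, was at 409.7 and 475 CPM in sh-NC and 460.3 and 501 CPM in sh-IRF2BP2, so that the groups overlapped (0.12 ± 0.14, adjusted p = 0.617). CD247, the zeta chain with most of the receptor's tyrosine motifs, was at 77.2 and 88.0 CPM in sh-NC and 68.5 and 81.1 CPM in sh-IRF2BP2 and also overlapped (-0.14 ± 0.13, adjusted p = 0.536). The annotation of CD247 is overlapped on the other strand by that of POU2F1, with 119% as many counts (0.25, adjusted p = 0.489). TRAT1, a transmembrane adaptor that associates with the receptor complex, rose from 39.0 and 30.5 CPM to 54.8 and 55.3 CPM (0.66 ± 0.15, adjusted p = 0.0298). Its adjusted p was 0.0936 without sh-IRF2BP2 replicate 1 and 0.0725 without sh-IRF2BP2 replicate 2.

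None of the 4 kinases passed the test. All 4 had log2 fold changes below 0, and for LCK, ZAP70 and TXK both knockdown libraries lay below both controls. LCK was at 574 and 652 CPM in sh-NC and at 529.8 and 559.6 CPM in sh-IRF2BP2 (-0.17 ± 0.13, adjusted p = 0.451). ZAP70 was at 180.1 and 207 CPM in sh-NC and at 162 CPM in both knockdown libraries (-0.26 ± 0.12, adjusted p = 0.226). FYN overlapped between groups, at 95.7 and 109.9 CPM against 93.6 and 104 CPM (-0.05 ± 0.13, adjusted p = 0.827). The 95% intervals allowed log2 fold changes down to -0.48 for LCK, -0.54 for ZAP70 and -0.35 for FYN.

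Of the 10 adaptors, 5 rose and none fell at the threshold. LAT rose from 30.4 and 29.3 CPM to 50.01 and 53.1 CPM, a log2 fold change of 0.79 ± 0.12 (adjusted p = 0.00843), and passed the test with each library left out in turn. The annotation of LAT shares its strand with the lncRNA ENSG00000261067, which held 43.3% as many counts as LAT and itself rose (1.15, adjusted p = 0.0386); how shared reads were divided was not stated. GRAP2, which encodes the adaptor GADS that links LAT to SLP-76, rose from 50.5 and 48.0 CPM to 79.2 and 84.1 CPM (0.73 ± 0.12, adjusted p = 0.00882). LCP2 was at 110.1 and 96.4 CPM in sh-NC and at 181 and 157 CPM in sh-IRF2BP2 (0.71 ± 0.13, adjusted p = 0.0163). The genes of all 3 proteins of the LAT, GADS and SLP-76 complex were thus higher in both knockdown libraries than in either control, although for LCP2 the adjusted p was 0.113 without sh-IRF2BP2 replicate 1.

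NCK2, an adaptor that joins receptor signals to the actin cytoskeleton, rose from 54.0 and 52.3 CPM to 84.5 and 79.2 CPM (0.62 ± 0.11, adjusted p = 0.0146), whereas its close relative NCK1 was at 45.8 and 47.3 CPM in sh-NC and 42.0 and 44.5 CPM in sh-IRF2BP2 (-0.11 ± 0.12, adjusted p = 0.612). The count of NCK2 per count of NCK1 was 1.18 and 1.11 in sh-NC and 2.01 and 1.78 in sh-IRF2BP2. SH2D1A, which encodes SAP, the adaptor of the SLAM family receptors, rose from 199 and 226 CPM to 309 and 307 CPM (0.53 ± 0.13, adjusted p = 0.0342). Its annotated span overlaps that of STAG2 on the same strand, which had 178% of its counts and a log2 fold change of 0.29 (adjusted p = 0.245). Without sh-IRF2BP2 replicate 1 the adjusted p was 0.124 for NCK2 and 0.198 for SH2D1A, and without sh-IRF2BP2 replicate 2 it was 0.149 for SH2D1A. The other 5 adaptors (GRB2, NCK1, FYB1, SKAP1 and THEMIS) had log2 fold changes from -0.21 to 0.33. THEMIS varied within both groups, at 11.7 and 28.3 CPM in sh-NC replicates 1 and 2 and 12.7 and 37.8 CPM in sh-IRF2BP2 replicates 1 and 2.

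Of the 6 phosphatases and kinase regulators, 3 rose: the phosphatase genes PTPRC, PTPN22 and PTPN6. PTPRC showed the largest change of any called member, from 439 and 426 CPM in sh-NC to 964 and 909.8 CPM in sh-IRF2BP2, which is 2.17-fold in the group means (log2 1.11 ± 0.13, adjusted p = 0.00288). No library of one group came near the other, and PTPRC passed with each library left out in turn; the counts are per gene and do not separate the CD45 isoforms. Relative to LCK, its substrate, the PTPRC count was 0.765 and 0.654 in sh-NC and 1.82 and 1.63 in sh-IRF2BP2. PTPN22, a phosphatase that acts on LCK and ZAP70, rose from 39.2 and 30.8 CPM to 66.6 and 60.1 CPM (0.86 ± 0.15, adjusted p = 0.0129). PTPN6, which encodes SHP-1, rose from 59.6 and 64.0 CPM to 87.7 and 98.4 CPM (0.59 ± 0.12, adjusted p = 0.0218), with an adjusted p of 0.0652 without sh-IRF2BP2 replicate 1 and 0.138 without sh-IRF2BP2 replicate 2. CSK, the kinase that places the inhibitory phosphate on LCK, was at 162 and 155 CPM in sh-NC and 215 and 183 CPM in sh-IRF2BP2 and did not pass (0.33 ± 0.13, adjusted p = 0.146). PAG1 and SIT1, transmembrane adaptors with regulatory roles, overlapped between groups. Without sh-NC replicate 1, PAG1 (0.94, adjusted p = 0.000859) and SIT1 (-0.68, adjusted p = 0.0107) passed.

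None of the 6 genes of ubiquitin ligases and receptor turnover passed. UBASH3A, a T cell restricted suppressor of the signal, came closest at 36.8 and 33.3 CPM in sh-NC and 23.4 and 26.2 CPM in sh-IRF2BP2 (-0.50 ± 0.14, adjusted p = 0.0589); with DESeq2 its adjusted p was 0.0428. CBL and CBLB, the E3 ligases of the group, had log2 fold changes of 0.41 and 0.22, and SLA, SLA2 and UBASH3B had values from -0.32 to -0.12. The annotation of SLA2 is overlapped on the other strand by that of RAB5IF, with 246% as many counts (-0.12, adjusted p = 0.624). CBL varied from 136 to 214 CPM between the controls, and without sh-NC replicate 1 it was at 0.77 with an adjusted p of 0.000841, as SOS1 was at 0.72 with 0.00291. The exchange factors SOS1 (0.43) and VAV1 (-0.14) and the NF-kB bridge genes BCL10 (-0.22) and MALT1 (0.08) did not pass either, with adjusted p-values between 0.171 and 0.759.

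Of 48 other genes of the T cell receptor pathway, a list by function that includes coreceptors, kinases, second messenger enzymes and later adaptors, 46 were tested in J.gamma1, and CTLA4 and RNF128 were not. Of these, 4 fell (8.7%) and 6 rose (13%), against 5.32% and 5.83% of all genes. RASGRP1, the diacylglycerol-responsive activator of Ras, fell from 62.7 ± 4.64 to 32.3 ± 3.41 CPM (SD, n = 2; log2 -0.96, adjusted p = 0.00577), and GAB2 (-0.91), RHOH (-0.75) and PTPN2 (-0.61) also fell. CD28, the main costimulatory receptor, rose from 25.8 ± 0.429 to 45.3 ± 4.50 CPM (SD, n = 2; log2 0.81, adjusted p = 0.0104). Among the other increases, PIK3R1 (0.71, adjusted p = 0.0492) and LIME1 (0.71, adjusted p = 0.0489) passed narrowly. Without sh-IRF2BP2 replicate 1, 2 of these genes were called lower and 3 higher, and without sh-NC replicate 1, 5 lower and 11 higher. PLCG1 mRNA was counted in all 4 libraries of this line, at 261 ± 6.63 CPM in sh-NC and 331 ± 21.7 CPM in sh-IRF2BP2 (SD, n = 2; 0.34, adjusted p = 0.114). CD4, at a mean of 6.40 CPM in sh-NC, and CD8A, at 2.29 CPM, were low in this line.

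The 14 T cell marker genes, none of them a member, summed to 1899 and 1923 CPM in sh-NC and to 2615 and 2643 CPM in sh-IRF2BP2; 4 of the 14 rose, 1 fell, and 11 were higher without overlap, with LEF1 and TCF7 the most abundant. Several of them, CD2, CD5, CD6 and CD28 among them, also belong to the other pathway genes above. When libraries were scaled on these 14 genes instead, the median over all genes moved to -0.35 and that of the members to -0.32. On that scale PTPRC remained higher (0.75, adjusted p = 0.0181), CD3D remained lower (-1.15, adjusted p = 0.00293), the other 8 increases kept their sign and did not pass, with values from 0.18 to 0.49, and 12 members in all were called lower, where 22.3% of all genes were called lower and 1.8% higher. Myeloid and platelet marker sums were at most 1.48 CPM in every library. B cell, plasma cell, erythroid and NK marker sums were 62.5 to 79.3, 134 to 149, 631 to 737 and 11.3 to 11.8 CPM in sh-NC and 29.1 to 31.4, 82.8 to 85.2, 545 to 638 and 112 to 119 CPM in sh-IRF2BP2. The erythroid sum was nearly all TFRC, which proliferating cells express, and the NK sum was nearly all EOMES, while MS4A1, NCR1 and HBB had counts of 0. The B cell sum was mostly CD79A, at 45.6 and 60.5 CPM in sh-NC and 11.2 and 14.0 CPM in sh-IRF2BP2. Of the 3 B cell genes tested, 1 was called lower. The plasma cell sum was mostly MZB1 and XBP1, and of 3 plasma cell genes tested 1 was called lower and 1 higher. The part of these genes in the result was not tested.

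In mouse splenic CD3+ T cells no member passed the test in either direction (edgeR, adjusted p under 0.05), where 2.68% of all genes were called higher, 0.15% lower and 2.83% in either direction. At an unadjusted p under 0.05, 12 members were lower and 1 higher, against 6.01% and 10.2% of all genes. DESeq2, run as an alternative, called 6 members lower and none higher, where it called 1.64% of all genes lower and 6.17% higher: Cd3g (adjusted p = 0.0320), Cd247 (0.0289), Txk (0.0369), Skap1 (0.000837), Sit1 (0.00146) and Sla2 (0.00117). Counts were simulated with the means and depths of these libraries, with 100 genes changed by 1 log2 unit and 100 by 2. Of these, edgeR recovered 36 and 79 and DESeq2 69 and 92. False calls over the whole run were 8 with edgeR and 64 with DESeq2. Changes smaller than 1 log2 unit were not simulated. The members' log2 fold changes ran from -0.77 (Sit1) to 0.60 (Fyb) with a median of -0.21, beside -0.02 over all genes. They were below 0 for 27 of 35 members, against 52.1% of all genes, and all KO libraries lay below all Wild type libraries for 18 members and above for 2, against 17.8% and 18.2% of all genes.

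**Figure D3:**
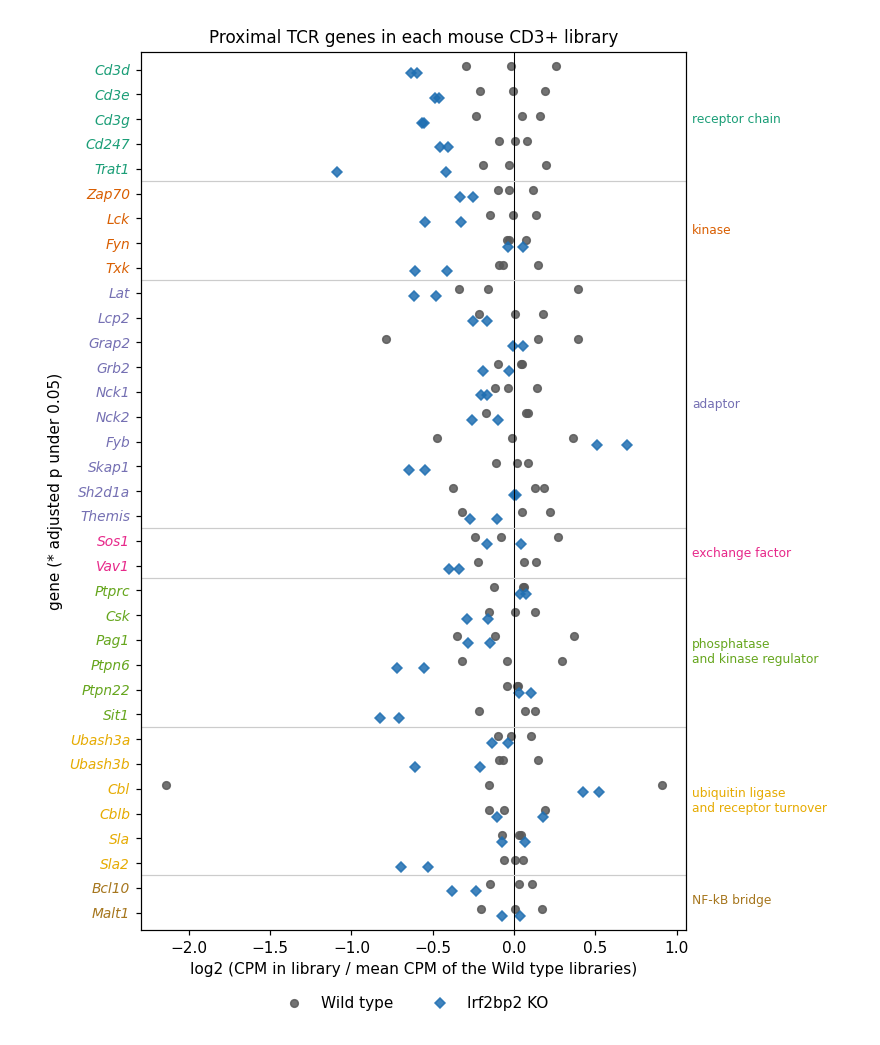
Each mouse CD3+ library's CPM relative to the mean of the 3 Wild type libraries, on a log2 scale, for the 35 members grouped by role; no member carries an asterisk, since none passed an adjusted p of 0.05. Both Irf2bp2 KO libraries lie left of all 3 Wild type libraries for the 5 receptor chain genes, and Wild type replicate 2 is the far left point of Cbl and Grap2.

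In the mouse, the values of all 5 receptor chain genes were lower in both KO libraries than in every Wild type library, and none passed the test. Cd3d was at 381, 462 and 314 CPM in Wild type and 249 and 254 CPM in Irf2bp2 KO (-0.62 ± 0.18, adjusted p = 0.169). Cd3e was at 338, 446 and 390.0 CPM against 279.6 and 284 CPM (-0.47 ± 0.15, adjusted p = 0.205). Cd3g was at 499.5, 538 and 410.4 CPM against 326 and 329 CPM (-0.56 ± 0.16, adjusted p = 0.142). For these 3 chains the spread among controls was far wider than that between the KO libraries. Cd247 was at 327, 369 and 350.1 CPM against 254 and 263 CPM (-0.43 ± 0.13, adjusted p = 0.154), and Trat1 was at 32.9, 42.9 and 36.7 CPM against 17.6 and 28.0 CPM (-0.72 ± 0.24, adjusted p = 0.209). Summed over the 5 genes, receptor chains were at 1579, 1858 and 1501 CPM in Wild type and at 1126 and 1158 CPM in Irf2bp2 KO. Unlike in J.gamma1, the count of Cd3d per count of Cd3g was similar in both groups, at 0.763, 0.858 and 0.764 in Wild type and 0.762 and 0.773 in Irf2bp2 KO; the difference between the 2 systems was not tested.

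Of the kinases, Lck was at 916, 1117 and 1012 CPM in Wild type and 694 and 809 CPM in Irf2bp2 KO (-0.43 ± 0.15, adjusted p = 0.232), and Zap70 at 242, 280.0 and 253 CPM against 205 and 217 CPM (-0.29 ± 0.13, adjusted p = 0.336). Fyn, a further Src family kinase of the pathway, overlapped at 433, 398 and 402 CPM against 399.7 and 427 CPM (0.01 ± 0.12, adjusted p = 0.986). Txk was at 138, 117 and 119 CPM against 93.6 and 82.0 CPM (-0.51 ± 0.14, adjusted p = 0.135). Lck, Zap70 and Txk thus showed no overlap between groups, and Fyn did.

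The adaptors were mixed. Skap1, an adaptor of integrin activation, was at 259, 226 and 247 CPM in Wild type and 167 and 156 CPM in Irf2bp2 KO (-0.60 ± 0.13, adjusted p = 0.0699). Fyb, which encodes the SKAP1-binding adaptor ADAP, went the other way, at 436, 316 and 564 CPM against 625 and 709 CPM (0.60 ± 0.24, adjusted p = 0.282). Neither gene overlapped between groups. Lat was at 534, 784 and 473 CPM against 389.5 and 428 CPM (-0.55 ± 0.23, adjusted p = 0.318), and its log2 fold change was -0.28 without Wild type replicate 2. Lcp2 overlapped, at 291, 339 and 382 CPM against 283 and 301 CPM (-0.21 ± 0.15, adjusted p = 0.589). The remaining 6 adaptors had log2 fold changes from -0.19 to 0.03.

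Among the regulators, Sit1, a transmembrane adaptor that binds SHP-2 and dampens the signal, had the lowest adjusted p of all members, at 68.1, 71.0 and 55.9 CPM in Wild type and 39.7 and 36.8 CPM in Irf2bp2 KO (-0.77 ± 0.15, adjusted p = 0.0535). Sla2, an adaptor that brings the receptor to CBL, was at 87.2, 91.2 and 94.2 CPM against 63.0 and 56.0 CPM (-0.61 ± 0.12, adjusted p = 0.0570), and the annotation of Sla2 is overlapped on the other strand by that of Rab5if, with 56.6% as many counts (-0.23, adjusted p = 0.684). Its relative Sla overlapped between groups, with a mean of 208 CPM in both groups (adjusted p = 0.995). Ptpn6 was at 302, 462 and 366 CPM against 229 and 257 CPM (-0.64 ± 0.20, adjusted p = 0.189). Ptprc, the member with the largest increase in J.gamma1, overlapped here at 2632, 2316 and 2624 CPM against 2589 and 2656 CPM. The 95% interval of its log2 fold change was -0.27 to 0.38 here and 0.82 to 1.41 in J.gamma1. The difference between the systems was not tested. Ptpn22 was at 271, 270.1 and 258 CPM against 286 and 271 CPM (0.07 ± 0.12, adjusted p = 0.845), narrowly without overlap. Vav1 (-0.37), Ubash3b (-0.40) and Bcl10 (-0.31) were lower without overlap, and the log2 fold changes of Malt1, Sos1, Cblb and Ubash3a lay between -0.09 and 0.04.

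Over all members, Wild type replicates 1, 2 and 3 were the farthest from the Wild type median about equally often, for 12, 12 and 11 members. Among the members with the widest spread it was mostly replicate 2. The highest Wild type value was over 1.5 times the lowest for 6 members, and for 5 of them replicate 2 was the library farthest from the Wild type median on a log scale: Cbl, at 114, 28.7 and 237 CPM, an 8.29-fold range, Grap2 (2.26-fold), Fyb (1.78-fold), Lat (1.66-fold) and Ptpn6 (1.53-fold). Without it the log2 fold change of Cbl went from 0.48 to 0.03, that of Grap2 from 0.03 to -0.23, that of Fyb from 0.60 to 0.44 and that of Ptpn6 from -0.64 to -0.44, while the median of the members was -0.23. Leaving it out brought Skap1 (adjusted p = 0.0385) and Sla2 (0.0494) past the threshold, and leaving out Wild type replicate 3 brought Cd3g (0.0470) and Sit1 (0.0315) past it. Replicate 2 also had the largest myeloid and B cell marker sums, at 287 and 264 CPM.

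Of the 48 other pathway genes, all tested in the mouse, 1 fell and 1 rose (2.08% each), against 0.15% lower and 2.68% higher over all genes. Cd8b1, the beta chain of the CD8 coreceptor, went from 484 ± 28.7 (SD, n = 3) to 252 ± 22.8 CPM (SD, n = 2; log2 -0.94, adjusted p = 0.0211), Cd8a was at 616 ± 33.6 and 406 ± 11.1 CPM (-0.60, adjusted p = 0.0676), and Cd4 at 479 ± 56.8 and 456 ± 12.6 CPM (-0.07, adjusted p = 0.872). Rnf128, the E3 ligase GRAIL, rose from 0.746 ± 0.307 to 5.42 ± 0.501 CPM (2.82, adjusted p = 0.0224). Cd8b1 did not pass without Wild type replicate 1 or either KO library, and across the 5 fits that left out 1 library the highest adjusted p was 0.256 for Cd8b1 and 0.195 for Rnf128. Cd28 (0.09) and Plcg1 (-0.08) did not pass. By flow cytometry, the study reports comparable shares of CD3+, CD4+ and CD8+ T cells in the spleens of both genotypes. The parts of fewer T cells, a shift between CD8 and CD4 cells and less RNA per cell in these bulk values were not tested.

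In the mouse, the 14 T cell markers summed to 5942 to 6375 CPM in Wild type and 4966 to 5059 CPM in Irf2bp2 KO, and 9 of the 14 were lower without overlap, though none was called. The 8 erythroid markers summed to 380 to 1159 CPM in Wild type and 2702 to 3746 CPM in Irf2bp2 KO; all 8 were higher without overlap and 4 were called, with Hba-a1, Hbb-bt and Slc4a1 the most abundant. Plasma cell markers summed to 432 to 1177 CPM in Wild type and 1166 to 1535 CPM in Irf2bp2 KO. All 6 had log2 fold changes above 0, 5 were higher without overlap and 1 was called higher. The B cell (36.4 to 264 against 36.8 to 105 CPM), myeloid (34.7 to 287 against 66.7 to 108 CPM), platelet (6.94 to 15.0 against 10.6 to 14.0 CPM) and NK sums (65.9 to 87.3 against 63.2 to 74.7 CPM) overlapped. With libraries scaled on the T cell markers, the median over all genes moved to 0.27 and that of the members to 0.07, a shift that this scaling gives to all genes about alike. The receptor chains were then at -0.32 (Cd3d), -0.18 (Cd3e), -0.26 (Cd3g), -0.14 (Cd247) and -0.42 (Trat1), and Sit1 at -0.47. The part of erythroid and plasma cell RNA in the members' values was not tested.

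**Figure D4:**
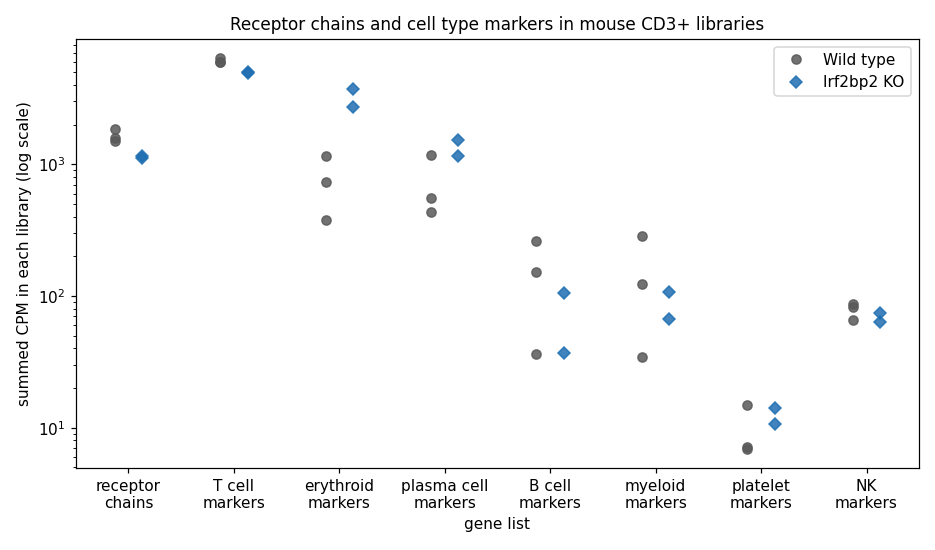
Summed CPM, on a log scale, of the 5 receptor chain genes and of each cell type marker list in each mouse CD3+ library; circles are Wild type and diamonds Irf2bp2 KO libraries. Receptor chains and T cell markers lie lower and erythroid markers higher in both KO libraries than in all 3 Wild type libraries, and the B cell, myeloid, platelet and NK lists overlap.

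The 2 comparisons share no libraries. Groups did not overlap in the same direction for 9 members lower in both systems (25.7% of the members, CD3D among them) and for 1 member, PTPN22, higher in both (2.86%), where 7.06% and 5.38% of the 9900 genes matched by symbol between the species had these patterns. The first pattern draws on the 12 members lower without overlap in J.gamma1 and the 18 lower in the mouse. Values lay on opposite sides without overlap for 4 members higher in J.gamma1 and lower in the mouse, TRAT1, LAT, CSK and PTPN6 (11.4%, against 5.07% of matched genes), and for 1, FYB1, lower in J.gamma1 and higher in the mouse (2.86%, against 5.88%). A further 8 members, PTPRC, LCP2, GRAP2, NCK2 and SH2D1A among them, were higher without overlap in J.gamma1 while their mouse groups overlapped. That is 22.9% of the members, close to the 21.4% of matched genes. Another 2 (5.71%, against 18% of matched genes) were lower in J.gamma1 with overlapping mouse groups. In turn 5 (14.3%, against 7.39%) were lower in the mouse with overlapping J.gamma1 groups, and 5 (14.3%, against 23.4%) overlapped in both. None of these differences between the systems was tested. Of the 10 members called in J.gamma1, none was called in the mouse. Simulated recovery was lower in the mouse, but covered only changes of 1 and 2 log2 units, larger than any member's mouse value.

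**Figure D5:**
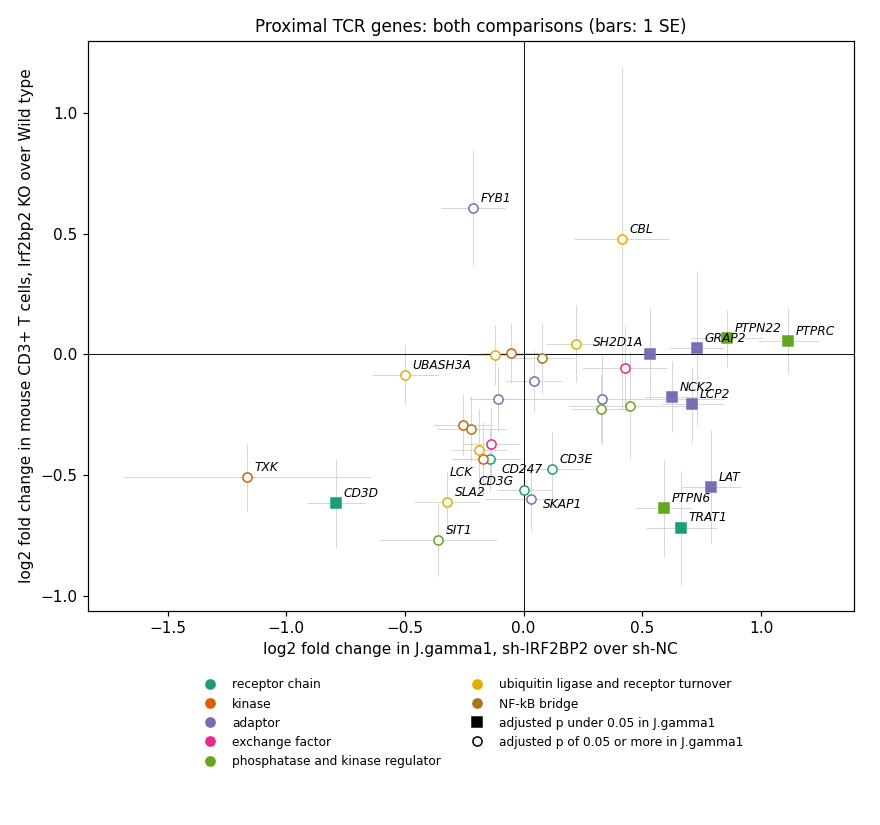
Log2 fold change of each member in J.gamma1 (horizontal) and in mouse CD3+ T cells (vertical), with bars of 1 SE; filled squares mark an adjusted p under 0.05 in J.gamma1. CD3D lies at -0.79 and -0.62, PTPRC at 1.11 and 0.06, and TRAT1, LAT and PTPN6 lie at the lower right.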

How the data were processed

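RNA-seq libraries (TruSeq, paired-end reads of 150 bases) came from 4 J.gamma1 samples and 5 mouse CD3+ samples. The authors deposited raw counts per gene. Per the labels reads were aligned with HISAT2 2.2.0 and quantified with StringTie, and how coverage became counts and whether strand was used are not given in the sources used here. Counts were taken as deposited and annotated with GENCODE for hg38 and mm10. Of the rows, 8147 human and 970 mouse rows had no annotated gene and were left out of the tests, and annotated genes held 97.9% to 98.1% and 99.8% of counts.

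Each comparison was fitted on its own samples with edgeR 4.0.16 in R 4.3.3 (filterByExpr, TMM, quasi-likelihood test, condition as the only term), with Benjamini-Hochberg adjustment over all genes tested and a threshold of 0.05. The residual degrees of freedom were 2 and 3. Log2 fold changes are treated over control with their SE, and intervals are 95%. TPM was computed from summed exon lengths and used only to compare genes. On simulated J.gamma1 counts edgeR recovered 77 of 100 genes changed by 1 log2 unit and 98 of 100 changed by 2. False calls over that whole run were 18. Replicates of a group differed by more than sampling noise (chi-square per gene 19.6 to 92.2), so none was counted as a repeat. The limits that a count of 0 allows cover counting error only.

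All 35 members were accounted for, with values for IRF2BP2, the CD3 and zeta chains, LCK, FYN, ZAP70, LAT, LCP2 and any member past the threshold. Of the other pathway genes, PLCG1, CD28 and up to 5 called genes with the largest changes per direction were named, except that some items the rule names are not reported here, and of each marker list its sum and a few genes. Other members were given values, and CD4 and the CD8 genes named, after their values were seen. The members, the other pathway genes and the marker lists (T cell, erythroid, B cell, plasma cell, myeloid, platelet and NK) were chosen with earlier results of these data known, as were the promoter motifs. Alternatives were DESeq2 1.42.0, other scalings and filters, fold thresholds, a replicate block and leaving out each library.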

Additional observations from a re-analysis of the deposited data

Results flagged for a closer look

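For 5 of the 35 members the values lay in opposite directions in the 2 systems, with every treated library on one side of all controls in J.gamma1 and on the other side in mouse CD3+ T cells. The log2 fold changes in J.gamma1 and in the mouse were 0.66 and -0.72 for TRAT1, 0.79 and -0.55 for LAT, 0.59 and -0.64 for PTPN6, 0.33 and -0.22 for CSK, and -0.21 and 0.60 for FYB1 (Fyb). TRAT1, LAT and PTPN6 passed the threshold in J.gamma1 and none of the 5 passed in the mouse. The difference between the systems was not tested, since they come from different species, cells and ways of lowering IRF2BP2. Of the members, 4 (11.4%) were higher in J.gamma1 and lower in the mouse without overlap and 1 (2.86%) the reverse. Among 9900 genes matched by symbol between the species, these shares were 5.07% and 5.88%. CSK and FYB1 passed in neither system.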

How the results depend on the processing

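In J.gamma1, 2 members were called lower with DESeq2, with upper-quartile scaling, with at least 10 counts in every library and with the replicate block, 12 with T cell marker scaling, 0 at a log2 fold of at least 1, and 0 to 2 with 1 library left out. Members called higher numbered 3 once every gene with a single count was kept (LAT, GRAP2 and PTPRC), 1 with T cell marker scaling, 1 at a log2 fold of at least 1, 12 with the replicate block, and 4 to 12 with 1 library left out. A fit without 1 J.gamma1 library assumes that the lone library of that group varies like the others. Other pathway genes called higher numbered 14 with the block and 3 to 11 with 1 library left out, and those called lower 2 to 5. The members' median was -0.01 with upper-quartile and -0.32 with T cell marker scaling. In the mouse, members called lower numbered 6 with DESeq2, 1 (Sit1) with the block and 0 to 2 with 1 library left out. Other pathway genes called lower numbered 5 with DESeq2, 2 with the block and 0 to 2 with 1 library left out, and those called higher 2 and 0 to 1 with DESeq2 and with 1 library left out. The median was -0.17 with at least 10 counts, 0.07 with T cell marker scaling and -0.29 to -0.22 with 1 library left out. Same-numbered libraries correlated at 0.23 in J.gamma1, and at 0.15 and -0.16 in the mouse, so the numbers were not shown to pair them. Over all genes, calls lower and higher were 1663 and 1884 with the block, 396 and 319 with that loose filter, and 3534 and 285 with T cell marker scaling in J.gamma1, against 841 and 923, and 255 and 961 with DESeq2, 53 and 443 with the block, 1 and 6 without Wild type replicate 1, 3 and 47 without KO replicate 1 and 1 and 9 without KO replicate 2 in the mouse, against 23 and 412. The cause was not tested.

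Among the members' log2 fold changes, those that turned sign were -0.0012 (CD3G) and 0.0050 (Sla) with DESeq2, -0.0016 (CD3G) and 0.0014 (Sla) with RLE scaling, -0.028 (CD3G) and -0.0017 (SKAP1) with that loose filter, -0.010 (CD3G), 0.029 (Malt1) and 0.043 (Sla) with at least 10 counts, and -0.051 (CD3G), -0.010 (GRB2), -0.026 (SKAP1) and 0.0039 (Sla) with upper-quartile scaling. With the replicate block they were -0.0081 (Fyn), 0.079 (Malt1), 0.018 (Pag1), -0.15 (Sh2d1a) and 0.096 (Sos1). With T cell marker scaling they were -0.14 (CBLB), -0.24 (CD3E), -0.36 (CD3G), -0.031 (CSK), -0.32 (GRB2), -0.29 (MALT1), -0.33 (SKAP1), -0.028 (THEMIS), 0.070 (Csk), 0.18 (Grb2), 0.085 (Lcp2), 0.27 (Malt1), 0.11 (Nck1), 0.12 (Nck2), 0.073 (Pag1), 0.29 (Sla), 0.23 (Sos1), 0.098 (Themis), 0.20 (Ubash3a) and 0.0028 (Zap70). With 1 library left out they ran from -0.031 to 0.0078 (CD3G), -0.15 to 0.048 (FYN), -0.0048 to 0.065 (GRB2), -0.054 to 0.21 (MALT1), -0.68 to 0.053 (SIT1), -0.17 to 0.26 (SKAP1), -0.66 to 1.11 (THEMIS), -0.13 to 0.16 (Cblb), -0.062 to 0.053 (Fyn), -0.23 to 0.27 (Grap2), -0.093 to 0.071 (Malt1), -0.34 to 0.010 (Pag1), -0.16 to 0.12 (Sh2d1a), -0.098 to 0.045 (Sla) and -0.19 to 0.093 (Sos1).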
